A study of Mus musculus with 12 samples.

Results

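Cytosolic ribosomal protein genes were followed across 4 groups of mouse bone marrow cells that carried mutant SETBP1, mutant NRAS, both or neither. Members were chosen by symbol alone: every gene in the count table named Rps or Rpl with a number, together with Rpsa, Rplp0, Rplp1 and Rplp2, and without pseudogenes and the Rps6k kinases. This gave 85 of 19910 listed genes, 33 of the small subunit series and 52 of the large subunit series. A low-count filter kept 77 of them among 10993 genes tested.

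Retroviral supernatants, collected at 48 and 72 h from 293T17 packaging cells, a derivative of the human embryonic kidney line 293T, were put on marrow of female C57BL/6J mice aged 6 to 10 weeks. Each group received 2 vectors. The empty group had 2 empty vectors, the SETBP1 group had SETBP1 with the D868N change and an empty vector, the NRAS group had an empty vector and NRAS with the G12D change, and the SETBP1+NRAS group had both mutants. The labels call all 12 samples leukemia cells, including those with empty vectors, and give 3 samples a group. SETBP1 is a DNA-binding partner of the SET protein and D868N lies in the stretch that marks it for degradation. NRAS is a small GTPase, and G12D keeps it in its active form. The labels do not say from which species the introduced genes came, whether samples were separate mice or cultures, or how transduced cells were enriched, so p-values measure the spread between these samples, which may be technical.

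A ribosome joins a small subunit, which reads the messenger RNA, to a large subunit, which forms the peptide bond, and ribosomal proteins hold the ribosomal RNA of both in shape. Cells make these proteins in balance, in step with growth, and their mRNAs are known for a pyrimidine stretch at the start of the transcript, the TOP sequence, through which mTORC1 signalling sets their translation. Loss of a single copy of several of these genes causes Diamond-Blackfan anaemia, in which the marrow fails to make red cells.

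The regions around the annotated starts are shown because the TOP sequence lies where transcription starts. They were taken only for members named below for the largest changes past the threshold, where a stretch could be printed. Promoter windows from RefSeq on GRCm38.p6, the build the UCSC names mm10, matched 65 of the 85 members. Each stretch runs from 60 bases before the annotated start to 4 bases from it onwards, 5′ to 3′ on the gene's strand, and the capitals mark its longest run of C and T. The genes are Rpl5 (chr5:107900468-107900531, + strand), Rpl24 (chr16:55966215-55966278, + strand), Rpl35a (chr16:33056393-33056456, + strand), Rpl4 (chr9:64173327-64173390, + strand), Rpl10a (chr17:28328411-28328474, + strand), Rpl19 (chr11:98026650-98026713, + strand) and Rpl13 (chr8:123102290-123102353, + strand).
Rpl5: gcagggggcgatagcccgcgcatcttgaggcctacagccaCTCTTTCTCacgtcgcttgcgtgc
Rpl24: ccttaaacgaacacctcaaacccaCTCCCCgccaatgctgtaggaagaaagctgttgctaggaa
Rpl35a: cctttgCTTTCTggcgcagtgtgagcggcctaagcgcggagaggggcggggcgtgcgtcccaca
Rpl4: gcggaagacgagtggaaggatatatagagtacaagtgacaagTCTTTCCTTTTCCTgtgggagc
Rpl10a: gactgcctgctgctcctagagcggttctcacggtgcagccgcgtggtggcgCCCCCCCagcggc
Rpl19: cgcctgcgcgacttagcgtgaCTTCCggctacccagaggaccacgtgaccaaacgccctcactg
Rpl13: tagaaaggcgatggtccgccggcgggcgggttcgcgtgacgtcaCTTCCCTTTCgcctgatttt
The run was longest in Rpl4, at 14 bases, against 10 in Rpl13, 9 in Rpl5 and 5 in Rpl19. Counted with -1 as the base just before the annotated start, the runs began at -9 in Rpl10a, -16 in Rpl13, -18 in Rpl4, -20 in Rpl5, -36 in Rpl24, -39 in Rpl19 and -54 in Rpl35a. Each of these 7 runs ended before the RefSeq start. The stretches hold only 4 bases from that start onwards, so they cannot show whether a TOP sequence begins there. Annotated starts also differ: GENCODE begins the gene Rpl4 at chr9:64173375, which lies within its marked run. Where transcription started in these cells was not measured.

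A run of at least 8 pyrimidines within 50 bases on either side of the start was present in 51 of the 65 members (78.5%) and in 35.7% of 27025 RefSeq promoter windows. The sense-strand words CTTTCC and CTTTTC were found there in 29.2% and 12.3% of members, against 4.67% and 3.71% of all windows. CCGGAAG, the core bound by ETS factors, was searched on both strands of the 300-base window and found in 38.5% of members against 9.12% of all. The E-box CACGTG, bound by Myc and Max, was found in 7.69% of members and 7.24% of all windows. TATAAA was in 1.54% of members and 3.15% of all windows, within 60 bases before the start. These are matches of letters in annotated windows, and they were counted without any measure of binding.

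The introduced genes were read in the groups that should carry them. Setbp1 had 0 counts in all empty and NRAS libraries, 5 to 7 in SETBP1 libraries and 11 to 17 in libraries with both. Nras had 626 to 741 counts in empty libraries, 708 to 722 with SETBP1, 10517 to 13502 with NRAS and 10988 to 12501 with both. Library totals ran from 7085894 to 8864919 counts. SETBP1 replicate 3 stood apart: it had the largest total, the fewest genes with a count (11835, against 12461 to 12800 elsewhere), and its transcripts of 4000 bases or more lay 0.30 lower on the log2 scale than the mean of its group. Of the markers of blood cells, Ptprc, Spi1, Cd52 and Lyz2 were read in every group, while the B-cell factor Pax5, the T-cell genes Cd3e and Cd8a, the globins Hbb-bs, Hbb-bt and Hba-a1 and the stromal Cxcl12 were at 0 in all 12 libraries. Other genes of these lists were read, and Nkg7, Cd79b and Klf1 fell and Pecam1 rose with both against empty (adjusted p under 0.05 by edgeR). The summed T and NK list (5 genes, Nkg7 among them) was 369 to 412 nCPM in empty libraries and 45.6 to 51.1 with both, the B list (6 genes, Cd79b among them) was 19.7 to 21.2 and 7.94 to 9.37, the erythroid list (7 genes, Klf1 among them) 6.86 to 10.8 and 0.896 to 1.88, and the stromal and endothelial list (6 genes, Pecam1 among them) 101 to 117 and 175 to 195. Their part in the results was not tested.

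The share of all counts taken by ribosomal protein genes was 1.92%, 2.18% and 2.15% in the empty libraries, 2.38%, 2.65% and 2.11% with SETBP1, 2.35%, 2.31% and 2.06% with NRAS, and 2.26%, 2.19% and 2.24% with both. Empty replicate 1 was lowest of all, and the empty range overlapped that of SETBP1 and that of NRAS, while the lowest SETBP1+NRAS library (2.185%) lay just above the highest empty library (2.183%). The mean share was 2.08% ± 0.144 (SD, n = 3) in the empty group. It was 2.38% ± 0.274 with SETBP1, 2.24% ± 0.159 with NRAS and 2.23% ± 0.0382 in the doubly transduced group. Counting error was far smaller than this spread: the 95% Wilson interval of a library's share reached at most 0.0116 percentage points to either side. Within each of the 4 groups the library with the largest total had the smallest share.

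**Figure D1:**
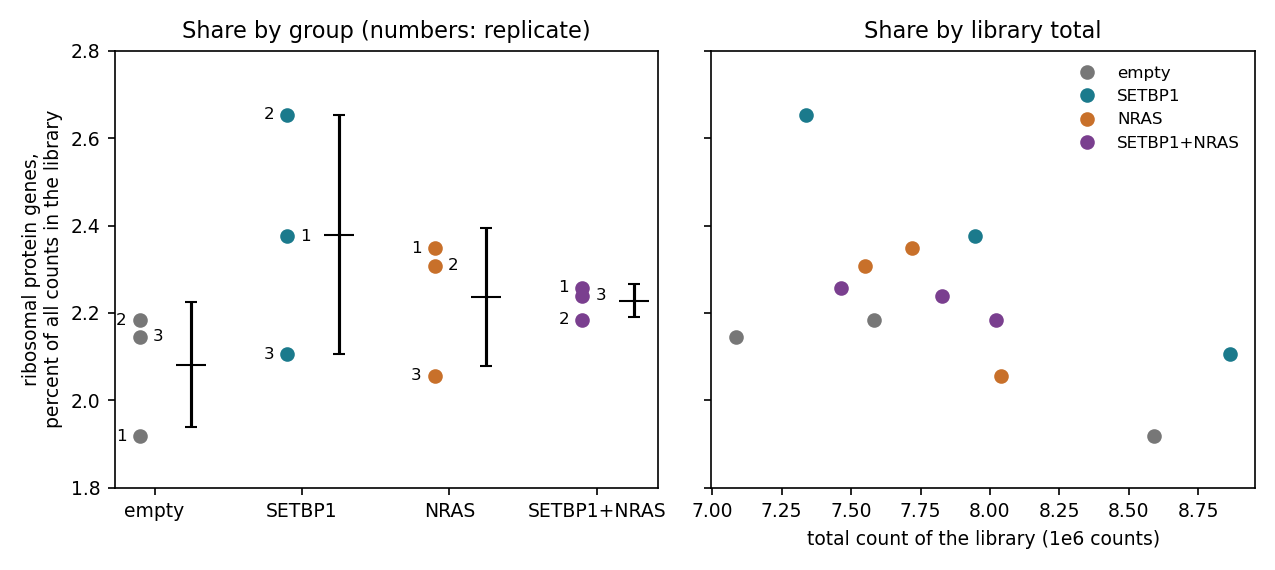
Share of all counts taken by the 85 ribosomal protein genes. Left, each library by group, with the mean and SD (n = 3); right, the same shares against the library's total count. The 3 SETBP1 libraries spread from 2.11% to 2.65% and the 3 libraries with both mutants from 2.19% to 2.26%, and the vertical axis does not start at 0.

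Levels within the family spanned a wide range. Normalised counts (nCPM, counts per 1000000 after TMM scaling) were divided by the length of 1 annotated transcript a gene, so that genes could be set side by side. In the empty group this level had a median of 219 nCPM per kilobase over 77 members, and it was highest for Rpl4 (893 ± 34.2, SD, n = 3), a large-subunit protein whose extension lines the peptide exit tunnel. Rplp0, the base of the stalk that recruits elongation factors, followed at 840 ± 22.1. Rps15a came out lowest, at 18.3, but its annotated transcript of 5179 bases is far longer than a typical member's, with a median of 851.

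Of the core subunit genes 4 were nearly unread: Rpl26 had 0 counts in all 12 libraries, Rps27 1 to 7, Rpl30 1 to 10 and Rpl34 2 to 10. They were below the filter with the tissue-restricted paralogs Rpl3l (0 to 9 counts), Rpl10l (0 to 1) and Rpl39l (1 to 9) and with Rps27rt (0 in all). In contrast, all 77 listed mitochondrial ribosomal protein genes passed. Many members share sequence with processed copies elsewhere: of all stretches of 50 bases in the transcript, 98.6% of those in Rps27 also occur in other annotated genes, 61% in Rpl26, 37.9% in Rpl34 and 29.7% in Rpl30. Tested members spanned 0% to 93.3% (Rpl9), so Rps27 lay above all of them and the other 3 within their range. The part of shared sequence in the low counts was not tested. One coding stretch of Rps27 (chromosome 3) that 5 other genes also hold is shown as an example of what a 50-base read cannot place.
Rps27: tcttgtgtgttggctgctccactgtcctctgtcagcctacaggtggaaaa
How the authors counted reads that map to several places is not given in the sources used here, so levels of members with many copies are uncertain.

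Mutant SETBP1 alone was compared with empty vectors first. By edgeR's quasi-likelihood test with adjustment over all genes tested, 20 of 77 members rose and 0 fell. This is 26% of members called higher and 0% lower, against 8.31% and 6.55% of all genes (14.9% in either direction). The median member changed by 0.26 on the log2 scale (1.19-fold), 76 of 77 had a change above 0, and the median of all genes was -0.01. The groups did not overlap for 40 members, all higher with SETBP1 (51.9%, against 16.7% of all genes). In bulk samples, a change in the make-up of the cells and a change in RNA per cell cannot be told apart. Summed late neutrophil markers (10 genes) were 11190 to 12620 nCPM in empty libraries and 5136 to 7326 with SETBP1, and monocyte and macrophage markers (9 genes) were 1262 to 1492 and 1758 to 2746. The median SETBP1 library had 1899 for the latter. In SETBP1 replicate 3 Csf1r was 624 nCPM, against 389 and 418 in the others of its group. C1qb was 751 there against 358 and 392, while Ccr2 was 421 against 427 and 485. Early granule markers (4 genes, of which 1 fell) were 23520 to 26140 in empty libraries and 17360 to 19110 with SETBP1. The part of these markers in the ribosomal protein change was not tested.

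Rpl10a, which forms the stalk beside the exit site for tRNA, was among the members that rose most. It went from 64.7, 74.7 and 73.1 nCPM to between 91.6 and 97.6 nCPM, a log2 change of 0.42 (SE 0.09, adjusted p = 0.0107 by edgeR). All 3 SETBP1 libraries were above all 3 empty ones. Rplp1, an acidic protein of the stalk, went from 196, 232 and 229 nCPM to 280, 329 and 265 nCPM, a log2 change of 0.41 (SE 0.10, adjusted p = 0.0162 by edgeR). Rpl12, at the base of the same stalk, went from 188, 213 and 219 nCPM to 259, 296 and 269 nCPM, a log2 change of 0.41 (SE 0.09, adjusted p = 0.0119 by edgeR). The groups did not overlap for either stalk gene.

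Of 31 small subunit members tested 8 rose, and of 46 large subunit members 12 rose. Rpl4 did not follow: its log2 change was 0.04 (SE 0.06), with 1333, 1433 and 1355 nCPM in the empty group and 1481, 1348 and 1415 nCPM with SETBP1, which overlap. Rpl7l1, a paralog of Rpl7, had a log2 change of -0.06 (SE 0.07) and was the 1 member below 0. Rpl36a had one of 0.00 (SE 0.15).

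These calls depended on single libraries. Without empty replicate 1, 0 members passed (0 of 77 by edgeR, with 24 at an unadjusted p under 0.05 and a median change of 0.19), where 2.47% of all genes were called higher. Without empty replicate 3 the count was 3 (2.14% of all genes higher), and without SETBP1 replicate 2 it was 9 (8.05%). It was 31 without SETBP1 replicate 1 (15.2%) and 51 without SETBP1 replicate 3 (7.7%). A fit on the 6 libraries of these groups alone called 0 members, with a median of 0.26 and 36 at an unadjusted p under 0.05, and called 0.546% of all genes higher. With all 12 libraries 47 members and 3632 of 10993 genes reached an unadjusted p under 0.05. Such counts of all genes are not given for the other fits. DESeq2 called 34 members on all 12 libraries, and 11.6% of all genes higher.

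The rise with SETBP1 was shared by other short transcripts. Among genes that are no members, those under 1000 bases had a median log2 change of 0.29 (601 genes), those of 1000 to under 2000 bases 0.20, those of 2000 to under 4000 bases -0.02, and those of 4000 bases or more -0.23. The 50 members under 1000 bases had a median of 0.27, which was no higher than that of the other genes of their length. With the trend on transcript length and GC content removed from each library, 2 members passed (6.03% of all genes higher) and the median fell to 0.01. Without SETBP1 replicate 3 the short non-members had a median of 0.21 and the short members one of 0.33; with the trend of the other genes also removed, 7 members passed (5.83% of all genes higher) and the members' median was 0.11. Whether the length trend arose in the cells or in making the libraries was not tested.

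**Figure D2:**
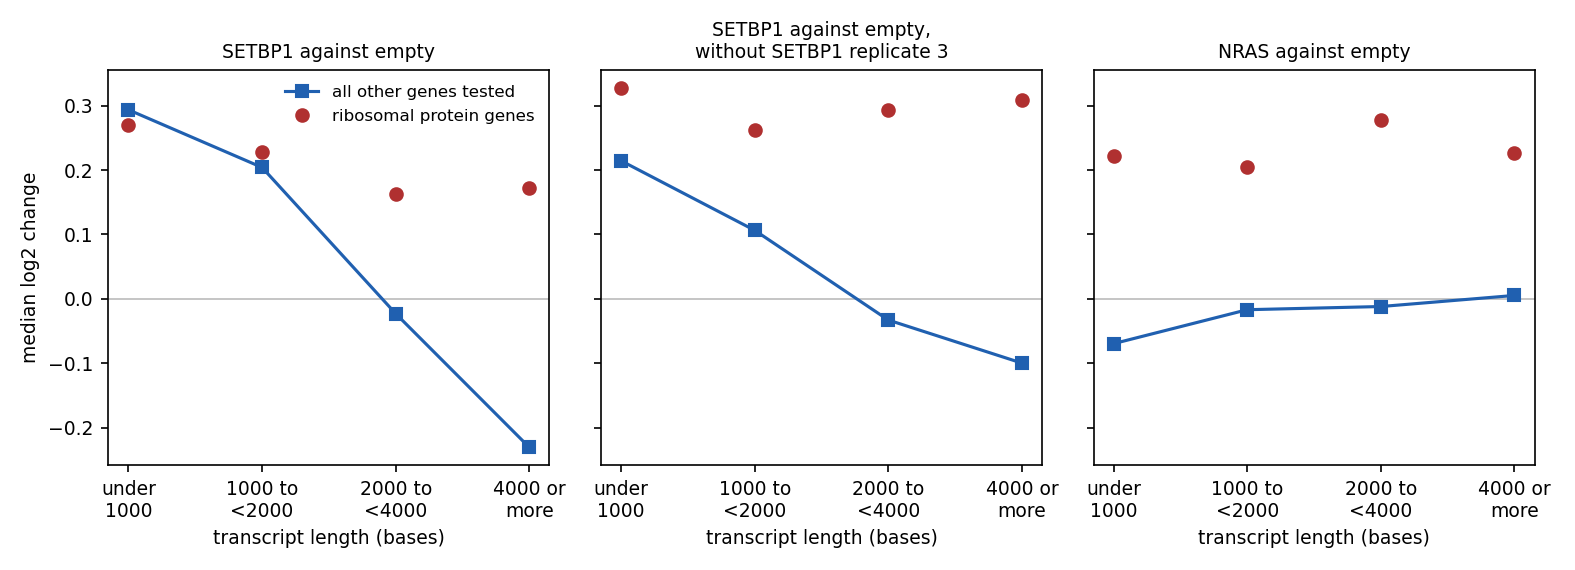
Median log2 change by transcript length class for ribosomal protein genes (circles) and all other genes tested (squares joined by a line). With SETBP1 the other genes under 1000 bases (0.29) reached the level of the members (0.27), and with NRAS they lay at -0.07 while the members lay at 0.22; the class of 4000 bases or more holds 1 member.

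Mutant NRAS alone gave a similar count on a different background. Here 19 of 77 members rose and 0 fell (24.7%), where 17% of all genes were called higher and 15.5% lower (32.5% in either direction). The median member changed by 0.22 (1.17-fold), 75 of 77 were above 0, and the median of all genes was -0.01. The groups did not overlap for 34 members, all higher with NRAS (44.2%, against 28.4% of all genes). Here the short transcripts outside the family lay elsewhere than the members: those under 1000 bases had a median of -0.07, against 0.22 for the 50 members of that length. Summed late neutrophil markers were 5868 to 7523 nCPM with NRAS, and the 10 genes went both ways: 2 rose, Cxcr2 by 1.08 (SE 0.22) and Mmp9 by 0.96 (SE 0.24), and 5 fell. Monocyte and macrophage markers were 1026 to 1130 nCPM with NRAS, and of the 9 genes 1 rose and 6 fell. Early granule markers (Mpo, Elane, Prtn3 and Ctsg) were 9212 to 10680, against 23520 to 26140 in empty libraries, and the part of these markers was not tested.

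Rpl24, which bridges the large subunit to the small one, went from 71.6, 80.5 and 73.8 nCPM to 101, 107 and 98.1 nCPM, a log2 change of 0.44 (SE 0.09, adjusted p = 0.0026 by edgeR). Rpl24 shares 71.5% of its exon bases with the annotated gene Gm28037 on the same strand, and how reads were divided between them is not given. Rpl12 reached 291, 299 and 243 nCPM with NRAS, a log2 change of 0.43 (SE 0.09, adjusted p = 0.00236 by edgeR). Rpl5, which carries the 5S ribosomal RNA into the large subunit and can bind the p53 regulator Mdm2, went from 245, 274 and 253 nCPM to 348, 353 and 314 nCPM, a log2 change of 0.39 (SE 0.07, adjusted p = 0.00105 by edgeR). None of these 3 genes overlapped between the groups. Of the exon bases of Rpl5, 46.6% lie under Fam69a on the opposite strand, so without a known strand setting its counts may hold reads of both.

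Each of these calls was kept in nearly every setting. Rpl12, Rpl24 and Rpl5 passed in 28 of 29 alternative settings with NRAS, the exception being the scaling to the members' own sum. Rpl4 rose by 0.23 (SE 0.06) and lost its call without empty replicate 1 (adjusted p = 0.0688 by edgeR) and without NRAS replicate 2 (adjusted p = 0.0508 by edgeR). Rpl13, of the large subunit, was among the 2 members below 0, with a change of -0.01 (SE 0.09). The count of members was 5 without empty replicate 1, 6 without NRAS replicate 1 and 7 without NRAS replicate 2, where 12.4%, 13.9% and 13.4% of all genes were called higher. It was 42 without SETBP1 replicate 3 (24.5% of all genes higher) and 53 with the length and GC trend removed (24.7%). With library size as the only scaling it was 5 (median 0.13, while the median of all genes moved to -0.10 and 12.5% of all genes were higher).

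**Figure D3:**
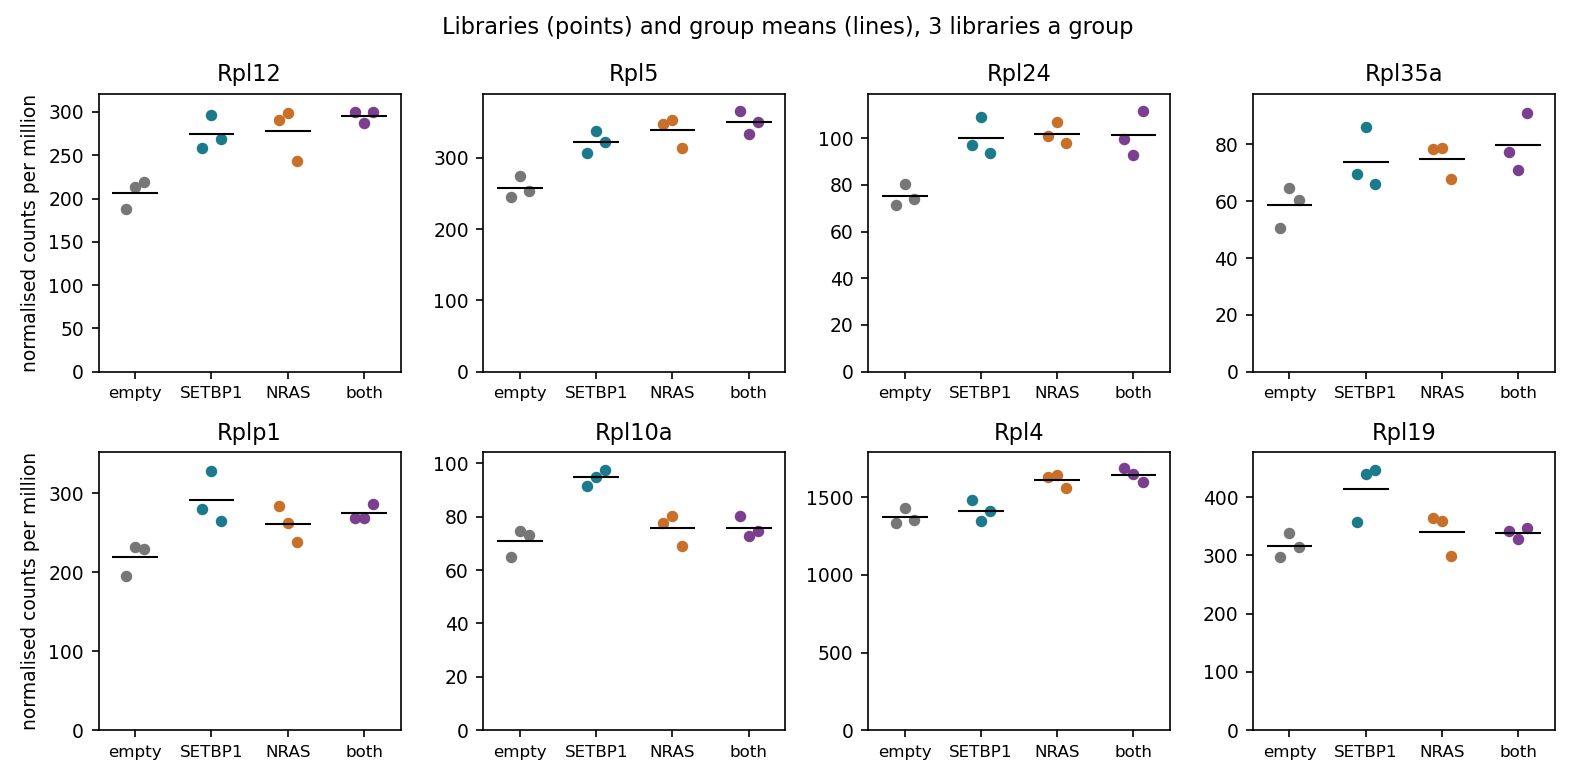
Normalised counts (nCPM) of 8 ribosomal protein genes in each of the 12 libraries (points), with group means (lines) and axes from 0. Rpl12, Rpl5 and Rpl24 lie higher in all 3 mutant groups than in the empty group, Rpl10a is high with SETBP1 alone, and Rpl4 is high in both groups with NRAS.

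With both mutants, 27 of 77 members rose and 0 fell against empty vectors (35.1%, where 20.8% of all genes were called higher, 19.8% lower and 40.6% in either direction). The median member changed by 0.24 (1.18-fold), and the groups did not overlap for 45 members (58.4%, against 30.7% of all genes). Rpl12 had 300.4, 287 and 299.6 nCPM, a log2 change of 0.52 (SE 0.09, adjusted p = 0.000423 by edgeR). Rpl5 had 366, 333 and 351 nCPM, a log2 change of 0.44 (SE 0.07, adjusted p = 0.00031 by edgeR). Rpl35a, a member linked to Diamond-Blackfan anaemia, went from 50.7, 64.5 and 60.5 nCPM to 77.5, 71.0 and 91.2 nCPM, a log2 change of 0.45 (SE 0.13, adjusted p = 0.0146 by edgeR). None of the 3 overlapped with the empty group. Rpl12 passed in 29 of 29 alternative settings, and Rpl35a lost its call without empty replicate 1 (adjusted p = 0.0804 by edgeR) and without SETBP1+NRAS replicate 3 (adjusted p = 0.0801 by edgeR). The count was 9 without empty replicate 1 (16.7% of all genes higher), 18 and 13 without replicates 1 and 3 of its own group (17.4% and 17.7%), and 45 when SETBP1 replicate 3 was left out (27.2%). In these libraries summed late neutrophil markers were down to 1986 to 2489 nCPM and early granule markers to 5222 to 5845 nCPM. Monocyte and macrophage markers were 1562 to 1710 nCPM, against 1262 to 1492 in empty libraries, with 2 of the 9 genes higher and 2 lower. Mast cell and basophil markers (6 genes) were 97.3 to 159 nCPM with both, 558 to 685 with SETBP1, 216 to 385 with NRAS and 1020 to 1059 in empty libraries. The part of these markers was not tested.

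**Figure D4:**
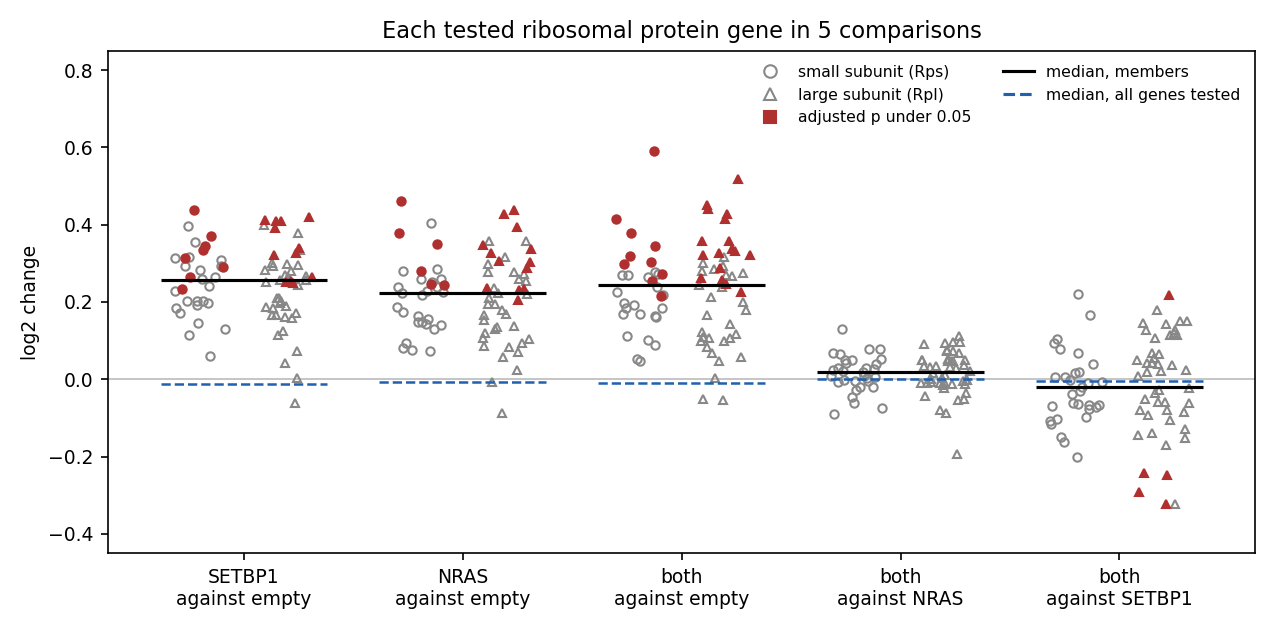
Log2 change of each of the 77 tested members in 5 comparisons, small subunit as circles and large subunit as triangles, filled where the adjusted p was under 0.05; solid lines give the members' median and dashed lines the median of all genes tested. The medians lie at 0.26, 0.22 and 0.24 against the empty group and near 0 in the comparisons of both mutants with either one.

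Adding mutant SETBP1 to mutant NRAS gave no call in the family. Against NRAS alone 0 members passed by edgeR, where 1.91% of all genes passed in either direction (0.528% higher and 1.38% lower). DESeq2 called 0 members and 3.45% of all genes. An unadjusted p under 0.05 was reached by 0 members and by 1283 of 10993 genes. The median was 0.02, the members ran from -0.19 (Rpl22l1) to 0.13, and the median SE of a member was 0.10. A call took a change several times its error. Outside the family, Rps6ka1 at -0.28 (SE 0.07) passed only narrowly (adjusted p = 0.0450 by edgeR). Member changes near the size of that error would not have been called.

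Adding mutant NRAS to mutant SETBP1 moved single members in both directions. Against SETBP1 alone 1 rose and 4 fell, 6.49% of members where 42.4% of all genes passed in either direction (20.9% higher and 21.5% lower), and the median was -0.02. The groups did not overlap for 3 members that were higher with both and 8 that were lower (3.9% and 10.4%, against 24.8% and 24% of all genes). Rpl4 rose, from 1481, 1348 and 1415 nCPM to 1689, 1650 and 1599 nCPM, a log2 change of 0.22 (SE 0.06, adjusted p = 0.0128 by edgeR). The groups did not overlap, and the call was lost without SETBP1+NRAS replicate 1 (adjusted p = 0.0550 by edgeR). Rpl10a had 80.1, 72.8 and 74.5 nCPM with both mutants, against 91.6 to 97.6 nCPM with SETBP1, and fell by 0.32 (SE 0.09, adjusted p = 0.0111 by edgeR). This call held with each of the 12 libraries left out in turn. Rpl19, another protein of the bridges between subunits, had 341, 327 and 347 nCPM against 357, 440 and 447 nCPM with SETBP1 and fell by 0.29 (SE 0.10, adjusted p = 0.0273 by edgeR). Rpl13 fell by 0.25 (SE 0.09, adjusted p = 0.0344 by edgeR). Without SETBP1 replicate 2 the calls of Rpl19 (adjusted p = 0.0870 by edgeR) and Rpl13 (adjusted p = 0.0907 by edgeR) were lost. Rpl19 also lost its call without SETBP1+NRAS replicate 1, 2 or 3 (adjusted p = 0.0656, 0.0892 and 0.0532 by edgeR). Rpl13 lost its call without SETBP1+NRAS replicate 2 or 3 (adjusted p = 0.133 and 0.0774 by edgeR). The calls of Rpl19 and Rpl13 held in 8 and 9 of 12 fits with 1 library left out.

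The direction of the falls turned with the length trend. Short non-members fell by a median of 0.37 in this comparison and those of 4000 bases or more rose by a median of 0.19. With the trend on length and GC content removed, 56 members passed, all higher, the median was 0.30, and Rpl10a, Rpl19 and Rpl13 had changes of 0.091, 0.13 and 0.20.

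The interaction asked whether the SETBP1 change differed with and without mutant NRAS. No member passed (0 of 77 by edgeR and 0 by DESeq2). Of all genes 0.0455% passed by edgeR, 0.0091% higher and 0.0364% lower, and 0.846% passed by DESeq2. An unadjusted p under 0.05 was reached by 18 members, all lower, and by 1420 of 10993 genes in either direction. Of the members 73 of 77 were below 0, with a median of -0.24. Rpl10a was at -0.42 (SE 0.13, adjusted p = 0.259 by edgeR). Short non-members had a median interaction of -0.31, and with the length and GC trend removed the members' median was 0.00. Without SETBP1 replicate 3 the members' median was -0.285, with short members at -0.29 and short non-members at -0.22. With the trend of the other genes also removed there, the members' median was -0.09. In these 2 fits 0 members passed, where 0.992% and 1.41% of all genes did.

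Members were also compared with each other. With each library scaled to the members' own summed count, 0 of 77 members differed with SETBP1 (0 by edgeR, where 23.7% of all genes passed), 2 with NRAS (where 30.8% of all genes passed) and 3 with both (Rpl12, which was higher, among them, where 38.9% passed). Between both mutants and SETBP1 alone 2 members, Rpl10a and Rpl19, were lower on this scale, where 35% of all genes passed, and between both and NRAS alone 0 were, where 1.42% passed. On this scale changes say only how a gene stands within the family.

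Members were then read by their place in the ribosome. Of the 5S particle, Rpl5 rose in all 3 comparisons with the empty group, while its partner Rpl11 had log2 changes of 0.26, 0.17 and 0.28 with SETBP1, NRAS and both, with SE 0.11, and passed in none. Rpl11 ran from 157 to 211 nCPM in the empty group and from 224 to 233 nCPM with both, without overlap. Of the stalk, Rplp0 rose with SETBP1 (0.25, SE 0.07) and with both (0.26, SE 0.07), Rplp1 rose in the same comparisons, and Rplp2 passed in none (0.28, 0.19 and 0.14, SE 0.10).

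Of 17 members linked to Diamond-Blackfan anaemia 15 were tested, since Rps27 and Rpl26 were not, and 4 rose with SETBP1, 5 with NRAS and 7 with both, where 8.31%, 17% and 20.8% of all genes were called higher. Their medians were 0.27, 0.26 and 0.28 beside 0.26, 0.22 and 0.24 for the family. Rps24 rose in all 3 comparisons (0.35, 0.35 and 0.34, SE 0.10) and lost each call without empty replicate 1 (adjusted p = 0.151, 0.0995 and 0.0904 by edgeR). Its calls held in 6, 9 and 9 of 12 fits with 1 library left out. Rps19, the gene most often mutated in that disease, had 198, 232 and 241 nCPM in the empty libraries, 255, 302 and 278 with SETBP1, 261, 248 and 207 with NRAS and 251, 221 and 254 with both. It passed in no comparison (log2 changes of 0.31, 0.09 and 0.11 against the empty group, SE 0.11).

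The 4 tested paralogs, Rpl7l1, Rpl22l1, Rpl36al and Rps27l, passed in no comparison. Rpl22l1, whose main form Rpl22 represses it in other cells, had 44.3, 54.5 and 55.1 nCPM in the empty group, 58.1, 74.0 and 53.1 with SETBP1, 57.6, 60.6 and 50.8 with NRAS and 51.8, 44.7 and 51.5 with both. Its largest difference was between both mutants and SETBP1 alone, at -0.32 (SE 0.14, adjusted p = 0.0711 by edgeR). Rps27l, a paralog known as a p53 target, had log2 changes of 0.36, 0.14 and 0.19 with SE 0.12.

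Genes that serve the same ribosomes were read beside the family. Their counts stand against 8.31%, 17% and 20.8% of all genes called higher with SETBP1, NRAS and both. Of 14 other mRNAs of the TOP class, elongation factors among them, 4 rose with SETBP1, 6 with NRAS and 7 with both, and 0 fell, with medians of 0.20, 0.22 and 0.28. Tpt1, a growth-linked TOP mRNA, rose by 0.48 (SE 0.08), 0.64 (SE 0.08) and 0.78 (SE 0.08). Of 9 chaperones of ribosomal proteins 4, 5 and 6 rose and 0 fell, led by Grwd1, a histone-binding chaperone of Rpl3, at 0.45 (SE 0.11), 0.57 (SE 0.11) and 0.84 (SE 0.11).

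Translation factors and ribosome assembly genes were read next, against the same 8.31%, 17% and 20.8% of all genes called higher. Of 25 other translation factors tested 4 rose with SETBP1 (median 0.10), 18 with NRAS (median 0.36) and 18 with both (median 0.39), and 0 fell. Eif4e, which binds the cap of mRNAs, rose by 0.55 (SE 0.08) with NRAS and by 0.66 (SE 0.08) with both. Of 17 ribosome biogenesis genes 9 rose with SETBP1, 12 with NRAS and 12 with both, and 0 fell, with medians of 0.22, 0.47 and 0.48. Rrp9, a protein of the small nucleolar particle that trims ribosomal RNA, rose by 0.47 (SE 0.09), 0.89 (SE 0.09) and 0.97 (SE 0.09). Npm1, a nucleolar chaperone often mutated in acute myeloid leukemia, rose by 0.37 (SE 0.08), 0.70 (SE 0.08) and 0.92 (SE 0.08). The 77 mitochondrial ribosomal protein genes had medians of 0.31, 0.18 and 0.22, with 28, 28 and 36 higher and 0, 0 and 1 lower. These medians are set side by side without a test between lists. None of these lists was adjusted for transcript length. With SETBP1, genes under 1000 bases outside the family had a median of 0.29.

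**Figure D5:**
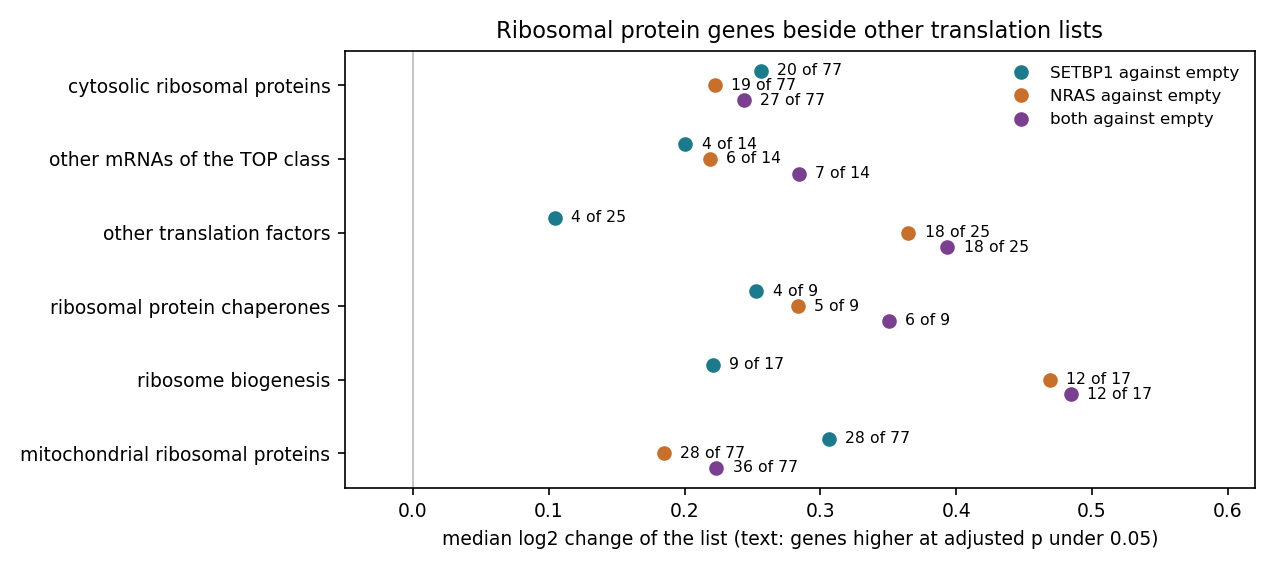
Median log2 change of the cytosolic ribosomal protein genes and of 5 other translation lists against the empty group, with the number of genes higher at an adjusted p under 0.05 of those tested. Ribosome biogenesis genes lie at 0.47 and 0.48 in the groups with NRAS, the cytosolic ribosomal proteins at 0.22 and 0.24.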

How the data were processed

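RNA was extracted with a micro column kit and made into libraries with a SMART-Seq ultra low input kit, per the labels' protocols. The authors deposited 1 table of raw read counts per gene for the 12 samples. The submitters' processing notes name STAR, DESeq2 and the build mm10; the counting tool, annotation, strand setting and treatment of multiply mapped reads are not given in the sources used here.

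From the counts, genes were kept by edgeR's filterByExpr (minimum count 10, minimum total 15; 99.93% of counts), scaled by TMM and fitted with the 4 group means over all 12 libraries in edgeR 4.0.16 (quasi-likelihood F test, two-sided, Benjamini-Hochberg over all genes tested, threshold 0.05) in R 4.3.3. Alternatives used DESeq2 1.42.0 and limma-voom (limma 3.58.1). Fold changes are log2, and nCPM are TMM-scaled counts per 1000000. Scripts were tested on simulated data. Transcript lengths, GC content, gene overlaps and shared 50-base stretches came from GENCODE vM21 on GRCm38, and lengths were had for all genes tested.

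Members and lists were chosen with earlier results of these data known. Members were named by these rules: up to 4 a direction with the largest change among those past the threshold in a comparison, the 5S, stalk, paralog and anaemia genes, and the 3 highest and 3 lowest by count; from other lists, up to 3 a direction. Members with the lowest changes in a comparison were named after their values were seen. Groups came from the labels. Start-region stretches with over 30 bases of annotated UTR were not printed. Some members that the rules would name are not reported here singly; they stay in the counts and medians.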

Additional observations from a re-analysis of the deposited data

How the results depend on the processing

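Counts of members past the threshold moved with the processing, and so did some medians. With SETBP1 against empty the median fell from 0.26 to 0.01 with the GC content and length trend removed, and with both against SETBP1 it turned from -0.02 to 0.30. With SETBP1 against empty the count was 20 in the analysis as reported. It was 10 with library size only, 2 with the GC content and length trend removed (2 also with that of the other genes, and 7 when SETBP1 replicate 3 was left out too), 0 with only the groups compared, 34 by DESeq2, 55 with the library total as a covariate, 0 scaled to the members' summed count, 0 at a threshold of 0.01, and 0 to 51 with 1 library left out. Of all genes 8.31% were higher as reported, and 7.04%, 6.03%, 6.09%, 5.83% and 0.546% in the first 5 of these settings. The share was 11.6% by DESeq2, 7.3% with the covariate, 1.88% scaled to the members, and 2.14% to 15.2% with 1 library left out. With NRAS against empty the count of members was 19. It was 5, 53, 57, 73 and 41 under the first 5 of these settings, in that order, 9 with upper-quartile scaling, 40 with the library total as a covariate, 2 scaled to the members' sum, 5 at 0.01, and 5 to 42 with 1 library left out. Of all genes 17% were higher as reported, and 12.5%, 24.7%, 25.1%, 32.8% and 24.9% in those 5 settings. The share was 14.3% with upper-quartile scaling, 18.1% with the covariate, and 12.4% to 24.5% with 1 library left out. Scaled to the members' sum, 30.8% passed in either direction. With both against empty the count of members was 27. It was 6, 59, 60, 71 and 50 under the same 5 settings, 14 with upper-quartile scaling, 44 with the total as a covariate, 3 scaled to the members' sum, 10 at 0.01, and 9 to 45 with 1 library left out. Of all genes 20.8% were higher as reported, and 15.1%, 30.1%, 30.4%, 37.3% and 27.6% in those 5 settings. The share was 17.6% with upper-quartile scaling, 21.6% with the covariate, and 16.7% to 27.2% with 1 library left out. Scaled to the members' sum, 38.9% passed in either direction. With both against SETBP1 the count of members was 5. It was 8 with library size only, 3 with no low-count filter, 56, 57 and 54 under the 3 trend settings, 1 with only the groups compared, 11 without empty replicate 1 and SETBP1 replicate 3 together, 8 with the total as a covariate, 2 scaled to the members' sum, 0 at 0.01, and 2 to 9 with 1 library left out. In either direction 42.4% of all genes passed as reported, 41.9% with library size only and 31.1% with no low-count filter. The trend settings gave 42.9%, 43.2% and 50.5%, and the groups compared alone 28.3%. The share was 45.8% with those 2 libraries left out, 41.5% with the covariate, 35% on the members' scale, and 33.5% to 46.7% with 1 library left out. With both against NRAS and for the interaction the count of members was 0 under each setting run. There 0.846% to 8.9% and 0% to 1.41% of all genes passed in either direction. Shares of all genes at 0.01 are not given. Under the trend settings 3 named falls against SETBP1 turned: Rpl10a to 0.091, 0.12 and 0.088, Rpl19 to 0.13, 0.16 and 0.16, and Rpl13 to 0.20, 0.23 and 0.17. No median of the members against empty fell below 0 in any setting.

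Replicate numbers gave no clear sign of pairing over all genes. Correlations between same-numbered libraries ran from -0.13 to 0.12 over 18 pairs, and 2 of 12 libraries correlated best with their own number. Over the members alone the same pairs ran from -0.52 to 0.53. With 3 libraries a group, such values cannot settle whether samples were paired. With the replicate number as a block the counts were 12, 16 and 25 against empty, and 3 for both against SETBP1.

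The covariate, the 2 libraries left out together, the members' scaling, the thinning to equal totals and the trend of the other genes were chosen after seeing the data. The cause of each movement was not tested. With 3 libraries a group the median SE of a member was 0.10, so changes near 0.2 could be called only in members with a smaller SE.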

Other observations

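Regulators of ribosomal protein mRNAs were read as a separate list. Of 13 genes of mTORC1 and TOP mRNA control 2 rose and 0 fell with SETBP1, 2 rose and 2 fell with NRAS, and 2 rose and 2 fell with both, where 14.9%, 32.5% and 40.6% of all genes were called in either direction. The medians of the list were 0.00, -0.01 and 0.06. Eif4ebp1, the cap-complex repressor that mTORC1 switches off, rose in each (0.46, SE 0.11; 0.36, SE 0.11; 0.55, SE 0.11). Deptor, an mTOR inhibitor, fell by 1.26 (SE 0.26) with NRAS and by 1.63 (SE 0.26) with both. Of 7 RSK, MSK and MNK kinase genes tested, which act below ERK, 0 rose and 1 fell with SETBP1. With NRAS 2 rose and 0 fell, and with both 1 rose and 1 fell, against the same shares of all genes. The medians of this list were -0.19, -0.07 and -0.06. Rps6ka4 rose by 0.32 (SE 0.08) with NRAS and by 0.57 (SE 0.08) with both, and Rps6ka5 fell by 0.67 (SE 0.22) with both. Rps6ka1, whose product phosphorylates the ribosomal protein Rps6, fell by 0.34 (SE 0.07) with SETBP1 and rose by 0.25 (SE 0.07) with NRAS.

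Among 13 genes of the p53 pathway, Mdm2, the p53 ubiquitin ligase that Rpl5 and Rpl11 can bind, rose by 1.09 (SE 0.07) with NRAS and by 1.36 (SE 0.07) with both. Cdkn1a, which halts the cell cycle, rose by 0.78 (SE 0.17) and 1.03 (SE 0.17), and Plk2 by 2.48 (SE 0.22) and 3.24 (SE 0.22). Trp53inp1 fell by 1.70 (SE 0.24) and 2.00 (SE 0.24), and Ccng1 fell by 0.25 (SE 0.09) with both. In the list 3 genes were higher and 2 lower with NRAS, and 6 higher and 3 lower with both, where 32.5% and 40.6% of all genes were called in either direction.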
